A study of Mus musculus with 3 samples.

Results

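The hedgehog and PTHrP loop of growth cartilage was followed through 9 genes, taken by symbol from the 26970 genes of the deposited table. They are the ligand Ihh, the receptor Ptch1, the signal transducer Smo, the ligand inhibitor Hhip, the transcription factors Gli1, Gli2 and Gli3, the ligand gene Pthlh and its receptor gene Pth1r. All 9 averaged 1 FPKM or more over the 3 libraries, as did 13026 genes of the table. RNA sequencing was done on the mandibular condyle, the jaw side of the temporomandibular joint, dissected with its cartilage and the bone beneath it still joined. The mice were 4 months old and on the C57BL/6 background, and they were WT, heterozygous (Dspp+/-) or homozygous (Dspp-/-) for a global knockout of Dspp, which encodes a matrix protein of dentin and bone. Because the knockout is global, the deletion is present in every tissue of the animal and not in cartilage alone. There was 1 library per genotype. Tissue of 3 animals was pooled for WT and for Dspp+/-, and the number behind Dspp-/- is not given in the sources used here. With 1 library per genotype no test between genotypes was possible, so every difference below lies between single libraries.

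In growth cartilage, Indian hedgehog (IHH) is secreted by prehypertrophic chondrocytes. It binds Patched 1, which releases Smoothened from inhibition and lets the GLI factors act on target genes, among them Ptch1, Gli1 and Hhip themselves. PTHrP, the protein encoded by Pthlh, is made by cells near the joint surface in response to hedgehog signalling, and through its receptor PTH1R it delays chondrocyte hypertrophy, which closes a negative feedback loop. PTH1R is also abundant on osteoblasts, where it answers parathyroid hormone. In the mandibular condyle the same signals are known for regulating the cartilage that covers the joint surface.

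Values are FPKM, fragments scaled to gene length and library depth. The length is that of all annotated exons of a gene merged, so a comparison between genes also depends on the annotation. The depth behind them was 20241576 fragments for WT, 23613621 for Dspp+/- and 22253158 for Dspp-/-, and the 9 genes together held 21709, 10420 and 13842 fragments in that order. Intervals in this text are 95% intervals, exact Poisson for a level and Clopper-Pearson for a fold, and they cover counting error only. Mitochondrial genes took 25.0% of the summed FPKM in WT, against 36.9% in Dspp+/- and 37.3% in Dspp-/-. Xist, transcribed from the inactive X chromosome of female cells, had 2 fragments in WT, against 12084 in Dspp+/- and 10563 in Dspp-/-, and the sex of the animals is not given in the labels, so genotype and sex cannot be told apart here. Dspp was not analysed here, and the labelled genotypes were therefore not checked against its level.

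Promoter sequences are shown for 4 of the genes, to set the GLI target genes Ptch1 and Hhip beside both ligands of the loop. RefSeq (GRCm38.p6) gave windows of 300 bases, from 250 before the transcription start to 50 after it, for 8 of the 9 genes. The gene without a window was Gli1. The genes lie on chromosome 1 (Ihh and Gli2), 6 (Smo and Pthlh), 8 (Hhip), 9 (Pth1r), 10 (Gli1) and 13 (Ptch1 and Gli3). In the first 3 sequences, read 5′ to 3′ on the gene's own strand, capitals mark each CG dinucleotide. Ihh lies at chr1:74951623-74951922 (minus strand), Ptch1 at chr13:63565686-63565985 (minus strand) and Pthlh at chr6:147263964-147264263 (minus strand).
Ihh: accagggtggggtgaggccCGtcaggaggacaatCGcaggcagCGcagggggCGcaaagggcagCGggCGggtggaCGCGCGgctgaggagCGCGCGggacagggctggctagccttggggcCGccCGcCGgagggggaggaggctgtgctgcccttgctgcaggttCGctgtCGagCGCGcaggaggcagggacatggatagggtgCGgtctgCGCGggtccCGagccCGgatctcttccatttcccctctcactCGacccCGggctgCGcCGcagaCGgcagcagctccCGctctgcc
Ptch1: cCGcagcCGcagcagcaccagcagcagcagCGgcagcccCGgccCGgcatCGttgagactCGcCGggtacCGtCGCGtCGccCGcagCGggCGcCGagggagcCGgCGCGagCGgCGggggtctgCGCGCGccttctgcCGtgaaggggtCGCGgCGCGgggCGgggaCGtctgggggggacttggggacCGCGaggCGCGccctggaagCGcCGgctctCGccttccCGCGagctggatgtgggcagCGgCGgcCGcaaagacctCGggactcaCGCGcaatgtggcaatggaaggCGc
Pthlh: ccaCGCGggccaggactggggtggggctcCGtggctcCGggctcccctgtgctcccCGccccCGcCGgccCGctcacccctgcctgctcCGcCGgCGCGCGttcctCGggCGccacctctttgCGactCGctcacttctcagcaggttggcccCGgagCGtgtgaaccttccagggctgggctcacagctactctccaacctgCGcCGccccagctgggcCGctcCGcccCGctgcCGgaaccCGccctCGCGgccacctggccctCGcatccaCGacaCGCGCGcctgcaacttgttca
In the fourth, Hhip at chr8:80057959-80058258 (minus strand), capitals mark the only match to a searched motif.
Hhip: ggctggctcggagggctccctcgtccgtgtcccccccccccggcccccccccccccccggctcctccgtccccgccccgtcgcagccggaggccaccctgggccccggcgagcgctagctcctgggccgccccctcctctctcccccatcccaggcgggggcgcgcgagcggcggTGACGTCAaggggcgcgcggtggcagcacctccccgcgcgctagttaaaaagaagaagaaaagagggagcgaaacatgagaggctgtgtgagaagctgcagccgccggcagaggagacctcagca

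Most of the windows of these genes were rich in CG dinucleotides. Over 32851 promoter windows the median was 7 per window, with quartiles of 3 and 20. Ptch1 had 47 CG dinucleotides, Gli3 39, Pthlh 33, Ihh 30, Hhip 30, Gli2 28 and Smo 17. Pth1r, with 3 windows, had 27, 23 and 5. Of the 10 windows, 8 lay above the upper quartile. The GLI motif GACCACCCA was found in none of the 10 on either strand, and in 0.253% of all windows. Because exact matches are this rare, their absence from 10 windows cannot show whether these genes have GLI sites. The cAMP response element TGACGTCA, the palindrome that CREB binds, was found in Hhip with its first base at position -75 from the start, and in 1.79% of all windows. The RUNX motif TGTGGT was found in Gli3 and in 16.8% of all windows, and TATAAA was found in none of the 10 and in 13.6% of all windows. None of these motifs overlapped another.

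The levels in WT condyle spanned a wide range. Pth1r was by far the highest, at 164 FPKM (160.8 to 167), above 98.7% of the genes that averaged 1 FPKM or more. Smo followed at 25.2 FPKM (24.2 to 26.1). Ptch1 and Ihh came next, at 18.8 FPKM (18.3 to 19.3) and 17.5 FPKM (16.5 to 18.6), with overlapping intervals. Gli1 was at 9.09 FPKM (8.51 to 9.70). The other four genes were low, with Gli3 at 3.56 FPKM (3.30 to 3.84), Gli2 at 3.46 FPKM (3.16 to 3.78), Hhip at 2.62 FPKM (2.39 to 2.86) and Pthlh at 2.20 FPKM (1.72 to 2.77). The intervals of Gli3 and Gli2 overlapped, and so did those of Hhip and Pthlh. Thus the receptor gene of the PTHrP arm was the most abundant of the 9, and its ligand gene was one of the least abundant along with Hhip.

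**Figure D1:**
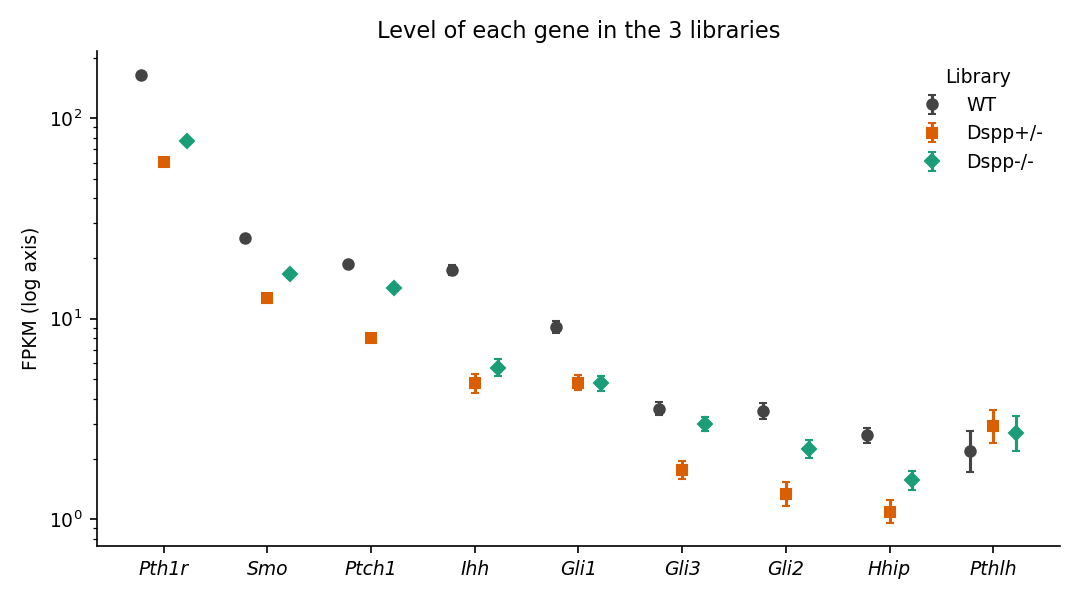
FPKM (log axis) of the 9 genes in the WT, Dspp+/- and Dspp-/- libraries, 1 library per genotype, with 95% Poisson intervals on the fragments. In every gene but Pthlh the WT point is the highest of the 3, and Pthlh is the only gene whose WT point is the lowest.

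Ihh, the ligand that starts the loop, was lower in both mutant libraries. It had 17.5 FPKM in WT (1081 fragments), 4.77 FPKM in Dspp+/- (343 fragments) and 5.71 FPKM in Dspp-/- (387 fragments). The WT library was high and the mutant libraries lay nearer to each other, with level intervals of 4.27 to 5.30 FPKM and 5.15 to 6.30 FPKM. These intervals overlapped, but the fold of Dspp-/- against Dspp+/- was 1.20 (1.03 to 1.39), with an interval above 1. The Dspp+/- level was 0.272 times the WT level (0.240 to 0.307), and the Dspp-/- level was 0.326 times (0.289 to 0.366). In condyle tissue, fewer cells of a type and less RNA per cell cannot be told apart, and this holds for every gene below. On the log2(FPKM + 1) scale, which understates the change of low genes, Ihh was at -1.68 in Dspp+/- and -1.47 in Dspp-/-. These were rank 55 and rank 29 from the lowest among 13026 genes. Of the 9 genes, Ihh had the lowest ratio in both mutant libraries.

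Ptch1, which is both the receptor of IHH and a gene that hedgehog signalling induces, separated the mutant libraries. It had 18.8 FPKM in WT, 8.06 FPKM in Dspp+/- and 14.2 FPKM in Dspp-/-, from 5407, 2699 and 4467 fragments. Dspp+/- was the low library and Dspp-/- lay between it and WT, and no 2 of the level intervals overlapped. Relative to WT, the fold was 0.428 (0.408 to 0.448) in Dspp+/-, and in Dspp-/- it was 0.751 (0.722 to 0.782). Between the mutant libraries, the Dspp-/- level was 1.76 times the Dspp+/- level (1.67 to 1.84), the largest such fold of the 9 genes.

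Smo, the transmembrane protein that passes the signal into the cell, had 25.2 FPKM in WT, 12.6 FPKM in Dspp+/- and 16.6 FPKM in Dspp-/-. The order was that of Ptch1, with folds against WT of 0.502 (0.472 to 0.533) and 0.661 (0.625 to 0.700). Hhip, a membrane protein that binds hedgehog ligands and keeps them from the receptor, had 2.62 FPKM in WT, 1.09 FPKM in Dspp+/- and 1.56 FPKM in Dspp-/-. Its folds against WT were 0.417 (0.355 to 0.489) and 0.598 (0.517 to 0.690), and Dspp+/- was again the lowest library.

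The 3 GLI factors did not share a pattern. Gli1, the activator whose own transcription is a common readout of hedgehog signalling, had 9.09 FPKM in WT, 4.80 FPKM in Dspp+/- and 4.76 FPKM in Dspp-/-. Its mutant levels lay together below WT, with folds of 0.528 (0.475 to 0.587) and 0.524 (0.470 to 0.583). The fold between the mutant libraries was 0.992 (0.879 to 1.12), and its sign changed with the scaling of the libraries. Gli2, the main activator that is present before the signal arrives, had 3.46 FPKM in WT, 1.34 FPKM in Dspp+/- and 2.24 FPKM in Dspp-/-. Its folds against WT were 0.387 (0.328 to 0.455) and 0.649 (0.563 to 0.747). Gli3, which acts mostly as a repressor of the targets, had 3.56 FPKM in WT, 1.76 FPKM in Dspp+/- and 2.99 FPKM in Dspp-/-. With folds of 0.495 (0.436 to 0.561) and 0.841 (0.754 to 0.938), Gli3 in Dspp-/- was the nearest to WT of the 8 genes that were lower.

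Pthlh, which encodes PTHrP, was the exception. It had 2.20 FPKM in WT, 2.90 FPKM in Dspp+/- and 2.69 FPKM in Dspp-/-, from only 72, 111 and 97 fragments. Its folds against WT were 1.32 (0.974 to 1.80) and 1.23 (0.894 to 1.69), both with intervals that include 1, so a difference in Pthlh was not detectable at this depth. The lower bounds of both Pthlh folds lay above the Ihh folds.

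Pth1r, the receptor of PTHrP and of parathyroid hormone, had 164 FPKM in WT, 60.5 FPKM in Dspp+/- and 76.6 FPKM in Dspp-/-, from 9715, 4176 and 4983 fragments. The WT library stood well above both mutant libraries. The folds against WT were 0.368 (0.355 to 0.382) and 0.467 (0.451 to 0.483). Pth1r stood at rank 124 and rank 118 from the lowest log2 ratio among 13026 genes, in Dspp+/- and Dspp-/- respectively. Even so, Pth1r was still the highest of the 9 genes in each mutant library, above 95.8% and 97.1% of genes.

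**Figure D2:**
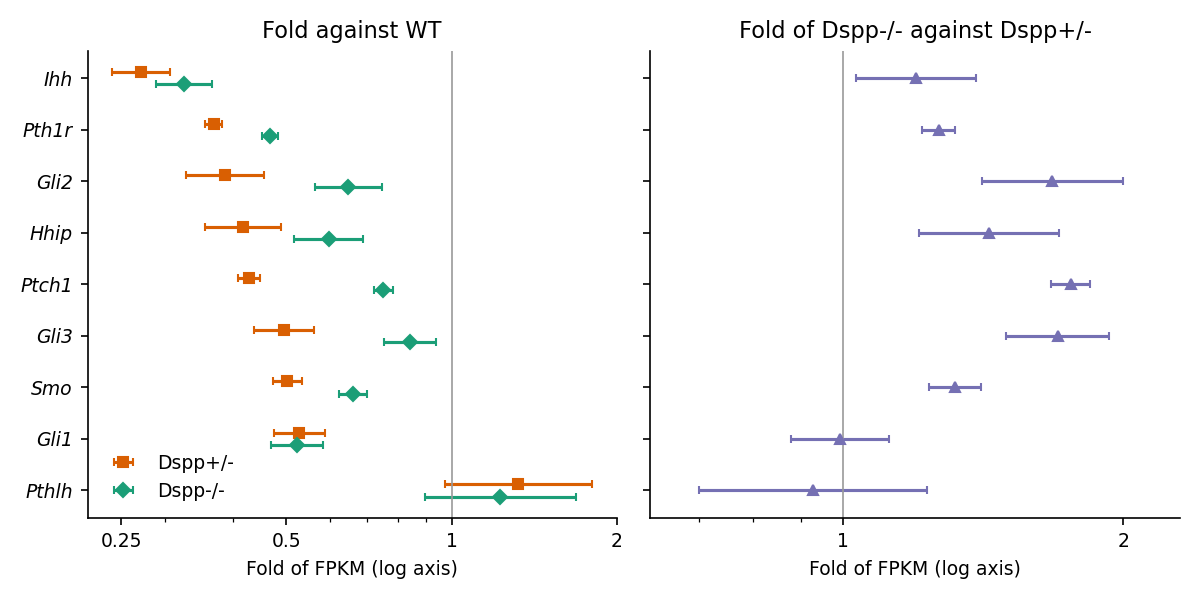
Left, fold of FPKM against WT (log axis) in Dspp+/- and Dspp-/-; right, fold of Dspp-/- against Dspp+/- (log axis), with 95% Clopper-Pearson intervals that cover counting error only. The intervals against WT lie below 1 for 8 genes and span 1 for Pthlh, and on the right 7 genes lie above 1 while Gli1 and Pthlh span it.

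Counted over the genes, 3 of the 9 (Ihh, Ptch1 and Pth1r) were at least 2-fold lower in Dspp+/- on the log2(FPKM + 1) scale, as were 2.86% of the 13026 genes. None of the 9 was at least 2-fold higher, against 4.88% of genes. In Dspp-/-, 2 of the 9 (Ihh and Pth1r) were at least 2-fold lower, against 1.37% of genes, and none was at least 2-fold higher, against 4.05% of genes. When the libraries were scaled without mitochondrial genes, Ihh alone stayed past 2-fold in Dspp-/-, and 128 of all genes were lower. Scaled to the same summed FPKM, an alternative chosen after seeing the data, 590 genes were lower and 431 higher in Dspp+/-, where 373 were lower and 636 higher as deposited, and 5 of the 9 were then at least 2-fold lower. The pseudocount holds low genes back from this threshold. Without it, 6 of the 9 were at least 2-fold lower in Dspp+/-, with Hhip, Gli2 and Gli3 added, against 4.91% of genes. In Dspp-/- it left Ihh and Pth1r, against 3% of genes. The counting interval of the fold lay wholly below 1 for 8 of the 9 genes in Dspp+/- and for the same 8 in Dspp-/-, while 28.4% and 33.6% of 12708 genes with recovered fragments did so. The comparisons share the WT library, so they are not independent of each other.

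The median log2 ratio of the 9 genes was -0.93 in Dspp+/- and -0.50 in Dspp-/-. Over all 13026 genes it was 0.06 and 0.01, with 43.7% and 49.3% of genes below 0. Among the 7 hedgehog genes the ratios ran from -1.68 for Ihh to -0.72 for Gli3 in Dspp+/-. The same 7 ran from -1.47 for Ihh to -0.19 for Gli3 in Dspp-/-.

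Set directly against each other, the mutant libraries differed in most of the loop. The counting interval of the fold of Dspp-/- against Dspp+/- lay wholly above 1 for 7 of the 9 genes, against 25.4% of genes. None of the 9 was at least 2-fold higher in Dspp-/- on the log2(FPKM + 1) scale, against 0.852% of genes. After Ptch1 came Gli3 at 1.70 (1.497 to 1.93), Gli2 at 1.68 (1.41 to 1.997), Hhip at 1.43 (1.21 to 1.70), Smo at 1.32 (1.24 to 1.41), Pth1r at 1.27 (1.21 to 1.32) and Ihh at 1.20 (1.03 to 1.39). Pthlh, at 0.927 (0.699 to 1.23), and Gli1 were the genes whose interval included 1. The library with 1 Dspp allele deleted was therefore the lower for most of these genes, and how far another library of the same genotype would differ is not known. This direction was not particular to the loop. The median log2 ratio between the mutant libraries was 0.34 for the 9 genes and -0.04 for all genes. For 18 chondrocyte markers it was 0.76 (14 higher, 4 lower), and for 18 osteoblast markers 0.66 (17 higher, 1 lower). For 12 hypertrophic chondrocyte genes it was 0.54 (10 higher, 2 lower), and for 7 superficial cartilage genes -0.23 (2 higher, 5 lower).

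The order of the levels changed with genotype in the lower part of the list. In all 3 libraries Pth1r came first, followed by Smo and then Ptch1. Ihh, whose interval overlapped that of Ptch1 in WT, lay with Gli1 in the mutant libraries, at 4.77 against 4.80 FPKM in Dspp+/- and 5.71 against 4.76 FPKM in Dspp-/-. Pthlh, last in WT, lay above Gli3, Gli2 and Hhip in Dspp+/-, and its interval was clear of that of Gli3, its nearest neighbour below. In Dspp-/- the intervals of Gli3, Pthlh and Gli2 overlapped as neighbours, and Hhip was last.

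Ratios of 2 genes within a library do not depend on how the libraries were scaled. The Pthlh level was 0.125 times the Ihh level in WT, against 0.609 times in Dspp+/- and 0.472 times in Dspp-/-. This ratio of the ligands was 4.86 times as high in Dspp+/- as in WT (3.53 to 6.69) and 3.76 times as high in Dspp-/- (2.72 to 5.21). Pthlh relative to its receptor gene Pth1r was 0.0134 in WT, against 0.0480 in Dspp+/- and 0.0352 in Dspp-/-. Both ratios were therefore lowest in WT.

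Within the hedgehog arm, Gli1 relative to Ptch1, which are both targets of the pathway, was 0.483 in WT, against 0.596 in Dspp+/- and 0.336 in Dspp-/-. Dspp+/- lay above WT and Dspp-/- below it, and the ratio in Dspp-/- was 0.565 times that in Dspp+/- (0.497 to 0.642). Gli1 relative to Gli3 was 2.55 in WT, against 2.72 in Dspp+/- and 1.59 in Dspp-/-. The WT and Dspp+/- values of this ratio differed by less than counting error, and the Dspp-/- value was 0.622 times WT (0.535 to 0.724). Hhip relative to Ptch1 was 0.139 in WT and 0.136 in Dspp+/-, which counting error covers, and 0.111 in Dspp-/-.

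**Figure D3:**
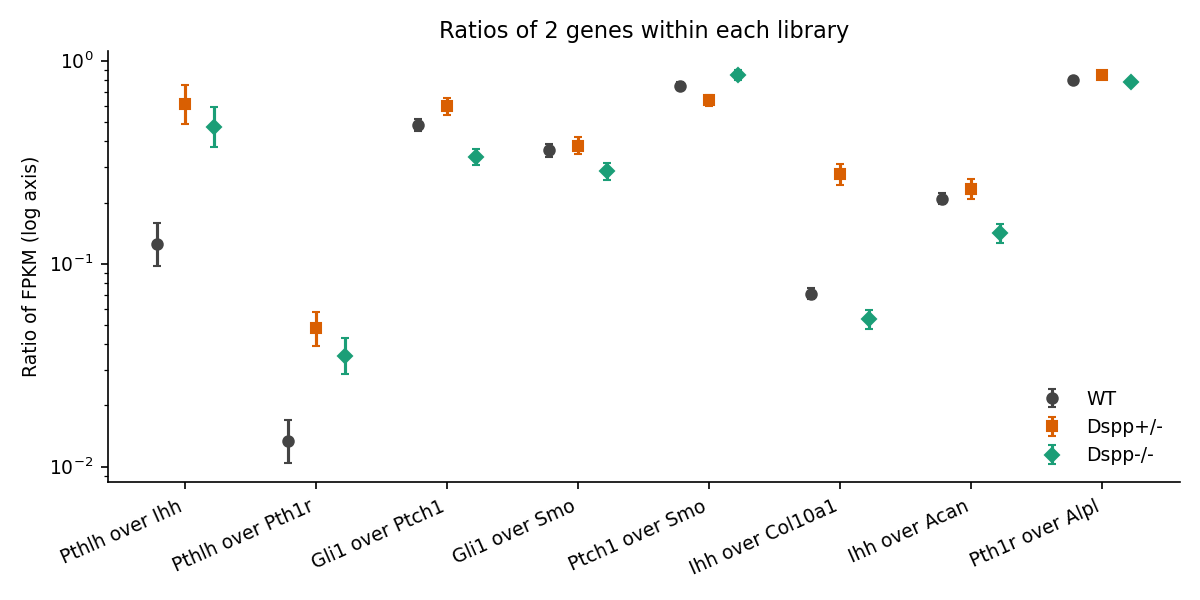
Ratio of the FPKM of 2 genes (log axis) within the WT, Dspp+/- and Dspp-/- libraries, with 95% counting intervals. Pthlh over Ihh and Pthlh over Pth1r are lowest in WT, Ihh over Col10a1 is highest in Dspp+/- at 0.276, and Pth1r over Alpl stays between 0.783 and 0.854.

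Genes of the cells that carry the loop moved in the same libraries. Of 18 chondrocyte markers that averaged 1 FPKM or more, 10 were at least 2-fold lower in Dspp+/-, against 2.86% of all genes. In Dspp-/- 9 were, against 1.37%. None of the 18 was at least 2-fold higher, and their medians were -1.73 and -0.97. Chad, a leucine-rich matrix protein of cartilage and the most abundant of them, had 962 FPKM in WT, 643 FPKM in Dspp+/- and 523 FPKM in Dspp-/-, so it was not past 2-fold. Col2a1, the main collagen of cartilage, had 761 FPKM in WT, 94.2 FPKM in Dspp+/- and 308 FPKM in Dspp-/-. Of 12 genes of hypertrophic chondrocytes and their calcifying matrix, 8 and 4 were at least 2-fold lower, against the same shares of all genes. Their medians were -1.47 and -0.62. Spp1 (osteopontin), the most abundant of them and also made by osteoblasts, had 2474 FPKM in WT, 814 FPKM in Dspp+/- and 1661 FPKM in Dspp-/-. Ibsp, which encodes bone sialoprotein, had 1643 FPKM in WT, 433 FPKM in Dspp+/- and 685 FPKM in Dspp-/-. Col10a1, the collagen made by hypertrophic chondrocytes, had 246 FPKM in WT, 17.3 FPKM in Dspp+/- and 107 FPKM in Dspp-/-. Its lowest library was Dspp+/-, as for Col2a1, Spp1, Ibsp and most of the loop genes.

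Osteoblast markers, the other home of Pth1r, were lower as well. Of 18 genes, 14 were at least 2-fold lower in Dspp+/- and 6 in Dspp-/-, against 2.86% and 1.37% of all genes. Their medians were -1.55 and -0.83. The hypertrophic list includes Spp1 and Alpl, which osteoblasts also make, so these lists do not separate the cell types. Col1a1, the main collagen of bone, had 6675 FPKM in WT, 1719 FPKM in Dspp+/- and 3610 FPKM in Dspp-/-. Its partner Col1a2 had 2780 FPKM in WT, 699.8 FPKM in Dspp+/- and 1496 FPKM in Dspp-/-. Of 7 genes of the superficial layer of joint cartilage, none was past 2-fold in either comparison, and the medians were -0.04 and -0.36. Thbs4 had 181 FPKM in WT, 159 FPKM in Dspp+/- and 136 FPKM in Dspp-/-, and Cilp had 99.1, 144 and 76.3 FPKM. These genes were thus on both sides of WT in Dspp+/-. Endothelial genes had medians of 0.06 and 0.00 over 12 genes and a summed level of 242, 259 and 245 FPKM in WT, Dspp+/- and Dspp-/-. Cdh5, the cadherin of endothelial junctions, had 48.9, 56.2 and 52.8 FPKM, and Eng had 44.2, 47.4 and 42.4 FPKM.

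Blood cell markers were higher in the mutant libraries. The summed level of 14 erythroid genes was 963 FPKM in WT, 3847 FPKM in Dspp+/- and 3739 FPKM in Dspp-/-, with 12 of them at least 2-fold higher in each. The summed level of 14 neutrophil genes was 666 FPKM in WT, 3066 FPKM in Dspp+/- and 3920 FPKM in Dspp-/-, with all 14 at least 2-fold higher in each. Of all genes, 4.88% were at least 2-fold higher in Dspp+/- and 4.05% in Dspp-/-. Hbb-bs, a beta-globin gene, had 425 FPKM in WT, 1794 FPKM in Dspp+/- and 1886 FPKM in Dspp-/-. Hba-a1 (alpha-globin) had 395, 1577 and 1344 FPKM in the same order. S100a9 and Ngp, proteins of neutrophils, had 232 and 145 FPKM in WT, 916 and 562 FPKM in Dspp+/-, and 1339 and 744 FPKM in Dspp-/-.

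Muscle and stromal genes varied as well. The summed level of 14 skeletal muscle genes was 12226, 16695 and 13408 FPKM in WT, Dspp+/- and Dspp-/-, and over the 12 that averaged 1 FPKM or more the medians were 0.37 and -0.13. Acta1, the muscle actin, had 5609, 8162 and 7150 FPKM, and Tnnt3 had 1450, 1950.1 and 1218 FPKM. In Dspp+/-, 2 of the 12 were at least 2-fold lower, Myh4 at 0.147 times WT and Actn3 at 0.254 times, and Myh2 was 2.07 times WT. Of all genes, 2.86% were at least 2-fold lower there and 4.88% higher. Smooth muscle genes, 8 in all, had medians of 0.09 and -0.16. Among them Des had 517, 663 and 429 FPKM and Rgs5 had 152, 195 and 201 FPKM. Smooth and skeletal muscle as sources of the Des level cannot be told apart here. The 9 genes of marrow stroma had medians of 0.18 and 0.42, with Cxcl12 at 41.3, 67.5 and 55.6 FPKM and Pdgfra at 21.8, 14.1 and 19.5 FPKM. Of these 9, Vcam1 was 2.16 times WT in Dspp+/- and Adipoq was 2.27 times WT in Dspp-/-. No other gene of the 9 was past 2-fold. The part of the cell makeup in the levels of the 9 genes was not tested.

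Against genes of the same cells, the change in a loop gene's ratio depended on both the loop gene and the partner chosen. Pth1r relative to Alpl, the phosphatase of osteoblasts and hypertrophic chondrocytes, was 0.807 in WT, against 0.854 in Dspp+/- and 0.783 in Dspp-/-. These values differed from WT by factors of 1.06 (1.01 to 1.11) and 0.971 (0.930 to 1.01), nearer to 1 than the folds of Pth1r itself. Against other partners the ratio of Pth1r did change in Dspp+/-, to 5.25 times WT over Col10a1 (4.91 to 5.62) and 1.43 times over Col1a1 (1.38 to 1.48). In Dspp-/- the same changes were 1.07 (1.02 to 1.12) and 0.863 (0.834 to 0.893). Ihh relative to Acan, the aggregating proteoglycan of cartilage, was 0.208 in WT, against 0.234 in Dspp+/- and 0.141 in Dspp-/-. Its change was 1.12 (0.989 to 1.275) in Dspp+/-, with an interval that includes 1, and 0.677 (0.6005 to 0.763) in Dspp-/-. Over Col2a1 the ratio of Ihh was 2.20 times WT in Dspp+/- (1.94 to 2.48) and 0.804 times in Dspp-/- (0.716 to 0.903).

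Ihh relative to Col10a1 turned in opposite directions in the mutant libraries. The ratio was 0.0713 in WT, against 0.276 in Dspp+/- and 0.0532 in Dspp-/-. It was 3.88 times the WT ratio in Dspp+/- (3.39 to 4.43) and 0.746 times in Dspp-/- (0.662 to 0.841). Pthlh relative to Prg4, the lubricin gene of the joint surface, was 0.0502 in WT, against 0.0396 in Dspp+/- and 0.0471 in Dspp-/-, and the intervals of its changes, 0.584 to 1.06 and 0.689 to 1.276, include 1.

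Other genes of the hedgehog pathway had medians nearer to 0 than the 9 genes. Of 30 listed genes, 23 averaged 1 FPKM or more. On the log2(FPKM + 1) scale none of the 23 was past 2-fold in Dspp+/-. Of all genes, 2.86% were at least 2-fold lower and 4.88% higher there. In Dspp-/-, 2 of the 23 were at least 2-fold lower, against 1.37% of all genes. With no pseudocount, 2 of the 23 were at least 2-fold lower in Dspp+/- (Kif7 and Scube3), against 4.91% of all genes. In Dspp-/- 4 were (Kif7, Scube1, Scube3 and Iqce), against 3%. The medians of the 23 were -0.31 and -0.35, against 0.06 and 0.01 over all genes. Of the 23, 18 were lower and 5 higher than WT in each mutant library, while 43.7% and 49.3% of all genes were lower. Kif7, a kinesin that positions GLI proteins in the cilium, had 2.98 FPKM in WT, 1.16 FPKM in Dspp+/- and 0.912 FPKM in Dspp-/-. Scube1, a secreted protein of the family that helps release hedgehog ligands, had 4.82 FPKM in WT, 2.60 FPKM in Dspp+/- and 1.84 FPKM in Dspp-/-. Scube1 was lowest in Dspp-/-, unlike Ptch1, Gli2 and Gli3, while the Kif7 levels of the mutant libraries differed by less than counting error (0.593 to 1.03). The other ligands were scarce, with Dhh at 0.247, 0.164 and 0.255 FPKM, and Shh at 1 fragment in Dspp+/- and none in WT or Dspp-/-.

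Of 30 other genes listed for the PTHrP arm, mostly downstream of PTH1R, 27 averaged 1 FPKM or more. Some of the 27 are also in the list of other hedgehog genes. The medians of the 27 were 0.09 in Dspp+/- and 0.09 in Dspp-/-, with 10 lower and 17 higher than WT in each. The only gene past 2-fold, with or without the pseudocount, was Rgs2, a regulator of G protein signalling that PTH1R signalling induces, with 4.64 FPKM in WT, 11.9 FPKM in Dspp+/- and 10.7 FPKM in Dspp-/-. Of 27 genes of the primary cilium, the structure in which Smoothened acts, none was past 2-fold with or without the pseudocount. Their medians were -0.21 and -0.08, with 22 lower in Dspp+/- and 18 in Dspp-/-. Of all genes, 43.7% were lower than WT in Dspp+/- and 49.3% in Dspp-/-. On the log2(FPKM + 1) scale 4.88% and 4.05% of all genes were at least 2-fold higher, and 2.86% and 1.37% lower. The medians of the 3 lists lay between -0.35 and 0.09, against 0.06 and 0.01 over all genes.

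**Figure D4:**
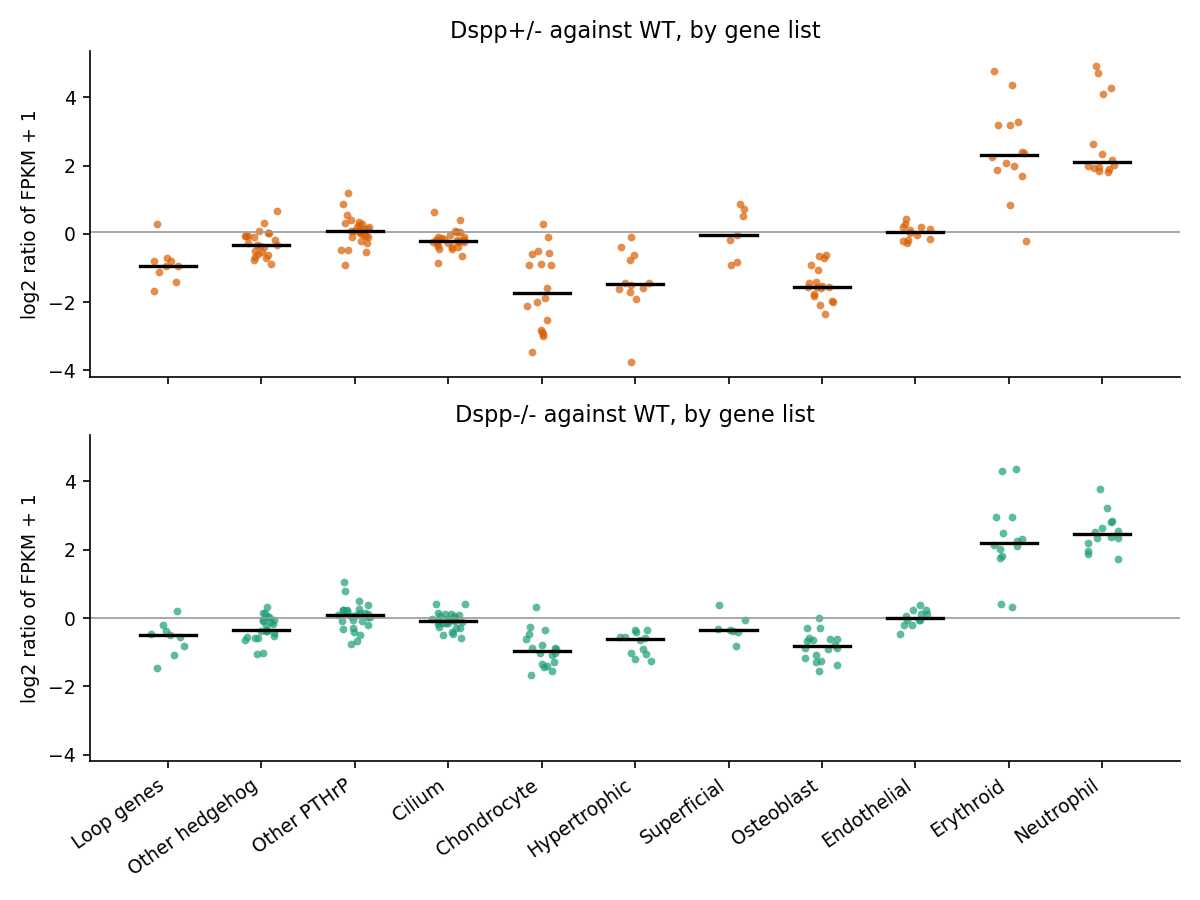
Log2 ratio of FPKM + 1 against WT for each gene that averaged 1 FPKM or more, by list, in Dspp+/- (top) and Dspp-/- (bottom); black bars are list medians and the grey line is the median of all 13026 genes. The bars of the 9 loop genes sit at -0.93 and -0.50, between those of the chondrocyte and osteoblast lists and those of the other hedgehog, PTHrP and cilium lists, and the medians of the erythroid and neutrophil lists lie above the line.

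The genes whose pair of log2 ratios lay nearest to a member were found over the 3 libraries. Nearest to Pth1r were Rpl36a-ps3, Serpinh1, Wnk4, Rcn3 and P3h1, at distances from 0.0135 to 0.0695, and 8 genes lay within 0.1. Serpinh1, the collagen chaperone HSP47, had 428 FPKM in WT, 160.3 FPKM in Dspp+/- and 196 FPKM in Dspp-/-, and P3h1 encodes a collagen prolyl hydroxylase. Nearest to Ptch1 were Fam167b, Mmp16, Gm20689, Col12a1 and Entpd3, with 20 genes within 0.1. No gene lay within 0.1 of Ihh. The nearest to it was Mepe, a matrix gene of osteocytes, at 0.135 with 369 FPKM in WT, 107 FPKM in Dspp+/- and 124 FPKM in Dspp-/-. Ighv9-3, Foxa2, Col16a1 and Gm266 came next, and Foxa2, a transcription factor of hypertrophic chondrocytes, had 6.86, 1.68 and 1.69 FPKM.

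The part that reads from neighbouring or similar genes could have in these values was estimated. Exons of 4 members overlap a gene on the other strand, and the library kit did not mark strand. The largest estimated share of fragments was at Gli1, where 62 bases are shared with Arhgap9. Arhgap9 had 1.87 FPKM in WT, 6.53 FPKM in Dspp+/- and 5.10 FPKM in Dspp-/-. At those levels, and counting the 62 shared bases alone, Arhgap9 would give 1.69% of the Gli1 fragments in Dspp+/-, the highest of the libraries. Fragments that overlap only in part were not modelled, so the share could be larger. Gm27820, which overlaps 175 bases of Hhip, has no deposited value, so its share was not estimated. Sequences of 100 bases found in other genes made up 3.22% of those of Gli1, 0.838% of Hhip, 0.793% of Gli3 and 0.308% of Smo, and none of the other 5 genes. Both strands were searched, so these shares can include the overlaps above and are not separate from them.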

How the data were processed

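Poly(A)-selected RNA of mandibular condyles was sequenced, with 1 library per genotype. The authors deposited FPKM values in 1 table of 26970 genes whose unit is not named. They were read as FPKM because the value times merged exon length (GENCODE M21) was a whole number of fragments, within 0.05, in all 3 libraries for 98.2% of 26641 genes. The submitters' processing notes list FastQC 0.11.5, HISAT2 2.1.0, StringTie 1.3.3b, DESeq 1.28.0 and the build name hg38, a human build. The annotation is not given in the sources used here, and gene positions in the table match GRCm38 for 578 genes only, so none is printed. The labels mention triplicates, but the table holds 1 value per gene and genotype.

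From the recovered fragments, intervals at 95% were computed for levels (exact Poisson) and folds (Clopper-Pearson); they cover counting error only. Depth ran from 20241576 to 23613621 fragments. Genes averaging 1 FPKM or more were compared on the log2(FPKM + 1) scale, and those past 2-fold in each direction were tallied. The study's Kruskal-Wallis test needs replicates and was not run. Recovery of depth and fragments was run on simulated data built with the same exon lengths and formula. It therefore cannot show whether the deposited values rest on those lengths. Members and lists were chosen with earlier results of these data known. Genes named are all members, genes of the pathway and cilium lists past 2-fold in either mutant library (at most 6 per list), the 2 most abundant genes of each marker list in WT, Col2a1 and Col10a1, and the 5 genes nearest to Ihh, Ptch1 and Pth1r by Euclidean distance. Acan, Alpl, Prg4, Dhh, Shh, Scube3, Iqce, Myh2, Myh4, Actn3, Vcam1, Adipoq, Xist and the genes overlapping members were named outside this rule. Alternatives were other pseudocounts, filters, scalings and fold thresholds. Dspp, Pth and Talpid3 were not analysed here. Promoters are from RefSeq (GRCm38.p6), and both strands were searched for each motif. The work was done in Python 3.11.15 with matplotlib 3.10.9, scipy 1.17.1, pandas 2.3.3 and numpy 2.4.6.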

Additional observations from a re-analysis of the deposited data

How the results depend on the processing

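With 1 library per genotype, no replicate could be left out. No paired analysis was possible because each genotype has 1 library. Against WT, each of the 9 genes kept its direction under every pseudocount and scaling run, and so did the 5 that remained (Ihh, Ptch1, Smo, Gli1 and Pth1r) over genes averaging 5 FPKM or more. Between the mutant libraries, Gli1 changed sign under 3 scalings. The median log2 ratio of the 9 genes in Dspp+/- was -1.19 with a pseudocount of 0.1, -0.52 with 5 and -1.22 with none. In Dspp-/- it was -0.81 over members that averaged 5 FPKM or more. Between the mutant libraries it was 0.40 with a pseudocount of 0.1, 0.19 with 5 and 0.40 with none. The number of the 9 at least 2-fold lower in Dspp+/- was 5 with a pseudocount of 0.1, 6 with none and 5 when each library was scaled to the same summed FPKM, and it was 8 at a 1.5-fold threshold and 0 at 4-fold. In Dspp-/- the number was 1 when scaled without mitochondrial genes, 3 at a 1.5-fold threshold and 0 at 4-fold. Of all genes, 128, 1070 and 6 were lower in Dspp-/- under these settings. Between the mutant libraries 1 of the 9, Ptch1, was higher at a 1.5-fold threshold, as were 441 of all genes. Median-ratio scaling gave 4 of the 9 in Dspp+/- and 438 of all genes lower.

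Over all genes, equal summed FPKM, an alternative chosen after seeing the data together with no pseudocount, moved the median log2 ratio to -0.12 in Dspp+/- and -0.14 in Dspp-/-. The median of the 9 genes was then -1.05 and -0.60. It gave 590 genes lower and 431 higher in Dspp+/-, against 373 and 636, and 323 lower and 407 higher in Dspp-/-, against 179 and 527. Over genes averaging 5 FPKM or more, 272 were lower and 281 higher in Dspp+/-. The lower genes in Dspp+/- and Dspp-/- numbered 605 and 363 with a pseudocount of 0.1, 156 and 45 with 5, 638 and 389 with none, 1166 and 1070 at 1.5-fold, and 24 and 6 at 4-fold. The cause of these changes was not tested. The low level of Pthlh, at 72 to 111 fragments, limits what its folds can show.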

Other observations

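The ratio of Pth1r to Col1a1, the collagen gene of bone, was 0.0246 in WT, against 0.0352 in Dspp+/- and 0.0212 in Dspp-/-, so it lay above WT in one mutant library and below it in the other. Ptch1 relative to Smo was 0.749 in WT, against 0.639 in Dspp+/- and 0.851 in Dspp-/-, with the mutant libraries again on either side of WT. Gli2 relative to Gli3 was 0.972 in WT, against 0.759 in Dspp+/- and 0.749 in Dspp-/-, and here both mutant libraries lay below WT. The change against WT in this ratio was a factor of 0.781 (0.638 to 0.956) in Dspp+/-, and in Dspp-/- it was 0.771 (0.647 to 0.919). These ratios and their intervals rest on 1 library per genotype and cover counting error only.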
